A study of Mus musculus with 4 samples.

Results

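The genes of MHC class II antigen presentation were examined in RNA-seq libraries of primary astrocytes from newborn mice. The set was fixed by name as 10 genes, H2-Aa, H2-Ab1, H2-Eb1, Cd74, Ciita, H2-DMa, H2-DMb1, H2-DMb2, H2-Oa and H2-Ob, and each was matched by its exact symbol. Of the 10 genes, 9 had a row among the 25393 listed genes, and H2-Oa was not analysed here. The 4 libraries came from untreated C57BL/6 mice at postnatal day 1, 2 of wild-type (WT) genotype and 2 labelled as constitutive Tet1 knockout (tet1-/-, KO). Astrocytes of cortex and hippocampus were grown in flasks for about a week and purified by shaking before total RNA was taken. The labels speak of 2 mice of each genotype and do not say whether the libraries of a genotype were separate cultures, so the p-values measure only the spread between these libraries, which may be technical.

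Class II molecules are pairs of an alpha and a beta chain that show peptides from swallowed proteins to CD4+ T cells. They assemble on the invariant chain (Cd74), travel to endosomes where cathepsins trim that chain, and receive their peptide with the help of the exchange factor DM, which DO holds back. Their promoters carry an X box and a Y box bound by RFX, CREB and NF-Y proteins, and are switched on by the coactivator Ciita, which interferon-gamma induces, in part through Irf1. Resting astrocytes are known to hold little class II, and interferon-gamma is a well-known inducer of it in culture.

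Class II genes were low in these libraries, with H2-Aa, H2-Eb1, H2-DMb2 and H2-Ob under 10 normalized counts throughout. The member called by DESeq2 after adjustment was H2-DMb1, the beta chain of DM (adjusted p 0.00682). It was not called by limma, the main test (adjusted p 0.197), nor by edgeR (adjusted p 0.227). H2-DMb1 stood at 49.1 and 49.7 normalized counts in WT and at 5.35 and 0.901 in the KO-labelled libraries, while its partner H2-DMa stood between 113 and 159 in all 4 libraries. Ciita was not lower in the KO-labelled libraries, where it stood at 22.5 and 30.6 against 18.1 and 11.0 in WT. A normalized count is the number of reads on a gene divided by the size factor of its library, and 1 read was worth 0.901 to 1.07. Libraries held 18749610 to 22673555 reads on genes, and a value of 3 reads, 2.70 to 3.21 normalized counts, was taken as the floor of detection. All intervals and floors cover counting error only.

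Some facts of the libraries bear on every comparison. Tet1 was at 266 and 121 normalized counts in WT and at 173 and 463 in the KO-labelled libraries, so it was not lower there, and every direction given here rests on the label. Xist, the RNA of the inactive X chromosome, was at 8.54 and 0.920 in WT and at 2896 and 13367 in the KO-labelled libraries, and the Y-linked Ddx3y was at 1484 and 398 in WT and at 0 and 314 there. Replicate 2 labelled KO thus held both Xist and Y-linked RNA, and genotype label and sex make-up cannot be told apart. Astrocyte markers were present in all libraries, but their summed level over 8 genes was 146600 and 148514 normalized counts in WT against 235812 and 44286 in the KO-labelled libraries, which stood apart mainly in Gfap (174853 and 9945). Of these 8 markers, 5 were lower in both KO-labelled libraries, beside 25.4% of all genes tested, and 1 was higher in both, beside 22.5%. The latter was Gja1, at 3557 and 5231 normalized counts in WT against 7361 and 6344. Slc1a2 (log2 fold change -2.58) and Sox9 (-1.15) were lower at an unadjusted p under 0.05 by limma, beside 9.18% of all genes. Of 17 microglia and macrophage markers with a row, 16 were lower in both KO-labelled libraries, beside 25.4% of all genes tested, and their summed level was 2984 and 5222 normalized counts in WT against 1138 and 698.5. The defining marker P2ry12 was near the floor, with 6 and 5 reads in WT and 0 and 1 in the KO-labelled libraries. Microglia and macrophages are known carriers of class II in the brain, and the part of these cells in the results was not tested. In such bulk libraries, fewer cells of a type and less RNA per cell cannot be told apart.

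Promoter windows of RefSeq on build GRCm38.p6, running from 250 bases before to 50 bases after a gene's start, were found for 7 of the 10 genes (8 windows). The letters GNAAC (X) followed 20 to 40 bases later by GATTGG (Y), on either strand, were searched as the core of the X and Y boxes, and these letters were chosen with the sequences in view. The pair was in the windows of 5 genes and in 1.21% of all 32851 windows, and GATTGG alone was in 16.1%. The stretches are shown because they place the shared promoter layout next to the values, with X and Y in capitals, each read along the gene's strand.
H2-Aa, chr17:34287859-34287910, minus strand: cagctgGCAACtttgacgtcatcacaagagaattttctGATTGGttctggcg
H2-Eb1, chr17:34305770-34305820, plus strand: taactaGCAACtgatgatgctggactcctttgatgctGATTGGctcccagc
H2-DMb1, chr17:34153091-34153142, plus strand: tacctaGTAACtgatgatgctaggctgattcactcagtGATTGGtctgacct
H2-DMb2, chr17:34145120-34145171, plus strand: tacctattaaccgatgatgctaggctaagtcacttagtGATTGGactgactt
H2-Oa, chr17:34092297-34092348, plus strand: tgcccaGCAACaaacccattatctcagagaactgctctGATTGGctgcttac
H2-Ob, chr17:34238812-34238860, plus strand: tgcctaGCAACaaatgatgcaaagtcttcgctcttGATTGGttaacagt
The distance from the start of X to the start of Y was 32 bases in H2-Aa, H2-DMb1 and H2-Oa, 31 in H2-Eb1 and 29 in H2-Ob. H2-DMb2 holds the Y letters and no match to X 20 to 40 bases before them, although its stretch resembles that of H2-DMb1. The 2 windows of H2-DMa held no such pair, and the second held GATTGG alone. Both of these windows lie at RefSeq starts upstream of the start given with the deposited values. The stretches of H2-DMb1 and H2-DMb2 lie inside the gene models given with the deposited values, which start at 34153072 and 34143307. H2-Ab1, Cd74 and Ciita had no window. Of the genes with the pair, H2-DMb1 and H2-Aa were lower in both KO-labelled libraries, as were 25.4% of all genes tested. H2-Aa held only 3 and 7 reads in WT against 0. H2-Eb1 overlapped and H2-Ob was at or under the floor in all 4 libraries. H2-DMa and H2-DMb2, without the pair, overlapped between the groups. For H2-DMb2 this rests on 4 reads in WT replicate 2, and it was at or under the floor in 3 of 4 libraries. Whether the letters bear on the levels was not tested.

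The levels of the genes, compared per length as FPKM (reads scaled by gene length and by the reads on genes in the library), spanned a wide range. Ranked by the mean over the 4 libraries, H2-DMa was the highest with 3.93 FPKM, above 65.0% of the listed genes. H2-DMb1 followed at 0.862 FPKM (above 47.2%), then H2-Ab1 at 0.658 (44.4%), Cd74 at 0.382 (38.4%) and H2-Eb1 at 0.270 (34.5%). Ciita at 0.104 FPKM (23.7%), H2-Aa at 0.0625 (17.8%), H2-DMb2 at 0.0258 (8.62%) and H2-Ob at 0.00699 (1.17%) made up the low end. Within WT, H2-DMa (4.22 ± 0.878 FPKM, SD, n = 2) lay above H2-DMb1 (1.63 ± 0.0342) by more than the spread of both. H2-DMb1 and H2-Ab1 (1.13 ± 1.22 FPKM) were not separated beyond their spread, and neither were H2-Ab1 and Cd74 (0.568 ± 0.215). In the KO-labelled libraries the order was another, with H2-DMa at 3.63 ± 0.322 FPKM, followed by H2-Eb1 (0.210 ± 0.182), Cd74 (0.196 ± 0.0356), H2-Ab1 (0.190 ± 0.191), Ciita (0.133 ± 0.0373) and H2-DMb1 (0.0963 ± 0.0937), of which the last 5 were not separated beyond their spread. In professional antigen-presenting cells the alpha and beta chains and Cd74 are known as highly abundant messages.

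**Figure D1:**
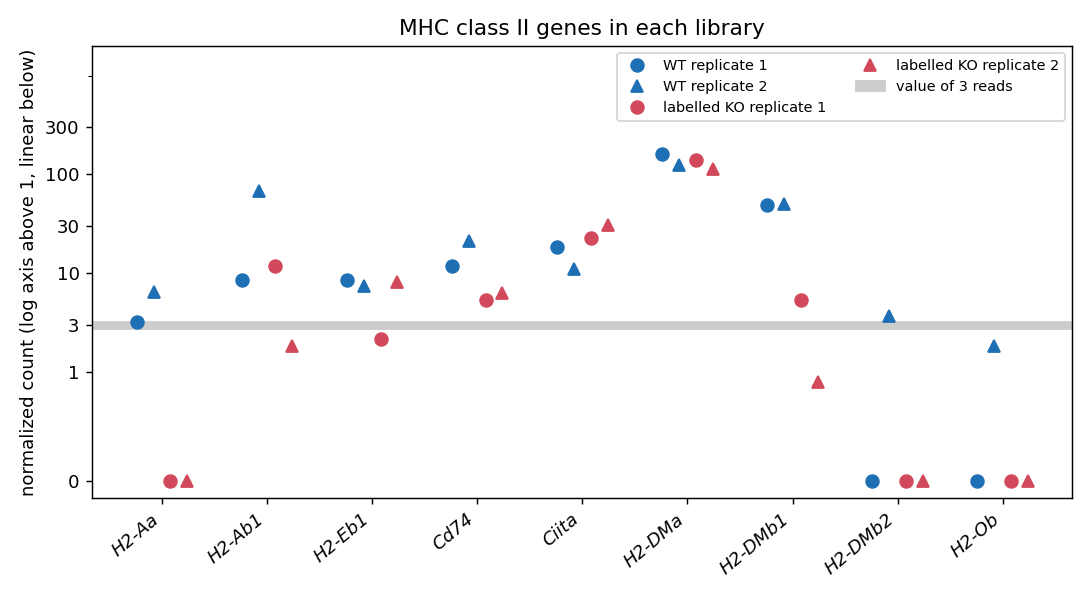
Normalized counts of the 9 class II genes with a row (x axis) in each library, on an axis that is logarithmic above 1 and linear below; circles are replicate 1, triangles replicate 2, blue is WT and red labelled KO, and the grey band is the value of 3 reads. H2-DMa lies above 100 in all 4 libraries, H2-DMb1 separates at 49.1 and 49.7 against 5.35 and 0.901, and H2-DMb2 and H2-Ob hold reads in WT replicate 2 alone.

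The comparison of genotype labels used limma on log2(normalized count + 1), where 7 of the 9 genes passed the mean of at least 1, and p-values were adjusted over all 22094 genes tested. At an unadjusted p under 0.05, 2 of the 7 (H2-Aa and H2-DMb1) were lower in the KO-labelled libraries, against a background of 9.18% of all genes, and 0 were higher, against 4.54%. With quantile normalization the all-gene split moved from 2028 lower and 1004 higher to 1490 and 1417, and H2-DMb1 kept its direction. With Benjamini-Hochberg adjustment 0 of the 7 passed, and the background was 0%, since limma's lowest adjusted p over all genes was 0.0777. By DESeq2 on recovered reads, 1 of the 6 genes given an adjusted p was lower (H2-DMb1), against 4.8% of all genes. Both KO-labelled libraries lay below both WT libraries for 3 of the 9 genes (H2-Aa, Cd74 and H2-DMb1), beside 25.4% of all genes tested, and above them for 1 (Ciita), with 22.5% among all genes. The other 5 overlapped. The median log2 fold change over the 7 genes was -1.30, beside -0.07 over all genes. It was -0.74 with the KO-labelled mean of H2-Aa set at the floor of 3 reads. H2-Aa passed the mean filter through its WT reads alone.

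The transactivator was the member with the opposite direction. Ciita (chr16:10480059-10528418) is the coactivator that class II promoters depend on, and 84 reads in all were recovered for it. It was at 18.1 and 11.0 normalized counts in WT and at 22.5 and 30.6 in the KO-labelled libraries, and the groups did not overlap. The means were 14.6 ± 5.02 and 26.6 ± 5.77 (SD, n = 2), 1.82-fold higher, with a log2 fold change of 0.84 (SE 0.66) and an adjusted p of 0.615 by limma, so the difference did not pass. Over all 15 alternative settings the value ranged from 0.07 to 1.39 and stayed above 0. The gene overlaps Dexi on the other strand, and 1.46% of its 50-base words also occur in Dexi, which was far more abundant (627, 614, 647 and 443 normalized counts). Whether the counting used strand is not given in the sources used here, so reads of Dexi and Ciita may not be told apart in the overlap.

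Several genes upstream of Ciita lay the other way. Of 9 genes from the interferon-gamma receptor to Ciita, 4 were lower at an unadjusted p under 0.05 (9.18% of all genes were), Irf1, Irf8 and Ifngr1 among them, 0 were higher, and the median log2 fold change was -1.05. Irf1, a transcription factor of the interferon response, was at 1331 and 1354 normalized counts in WT against 520 and 609 in the KO-labelled libraries (log2 fold change -1.25, SE 0.29, adjusted p 0.211 by limma), while the receptor chain Ifngr2 was at 804 and 1243 against 838 and 1236. The kinase Jak1 was at 3448 and 2837 against 4044 and 3806, and its adjusted p was 0.639. The FPKM ratio of Ciita to Irf1 within each library was 0.00568 and 0.00340 in WT, against 0.0180 and 0.0210 in the KO-labelled libraries. These groups did not overlap, and the exact two-sided permutation p of 0.333 is the smallest that 2 against 2 libraries allow. Nlrc5, the class I counterpart of Ciita, was at 323 and 417 against 24.6 and 123 normalized counts, lower by 2.71 on the log2 scale (SE 0.80, adjusted p 0.277). The ratio of Ciita to Nlrc5 was 0.050 and 0.0235 in WT against 0.813 and 0.223, with the same exact permutation p of 0.333. Class I genes as a group (10 genes, H2-K1, B2m and Tap1 among them) were lower in both KO-labelled libraries (25.4% of all genes were), and 8 were lower at an unadjusted p under 0.05, beside 9.18% of all genes.

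The messages of the factors that bind the X and Y boxes were present in all libraries, and none passed the test. Among 7 genes (Rfx5, Rfxap, Rfxank, Nfya, Nfyb, Nfyc and Creb1), 0 had an unadjusted p under 0.05 by limma, 0 by DESeq2 after adjustment, and the median log2 fold change was 0.08. Rfx5, the DNA-binding subunit of RFX, was at 606 and 679 normalized counts in WT and at 506 and 594 in the KO-labelled libraries. Rfxap had the highest mean of the 7, 17.9 FPKM, and a log2 fold change of 0.08 (SE 0.43). Nfya, a subunit of the Y box factor, had the most positive value, 0.47 (SE 0.33, adjusted p 0.571).

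The alpha and beta chains were sparse and uneven. H2-Aa (chr17:34282744-34287827, minus strand) encodes the I-A alpha chain and held 3 and 7 reads in WT and 0 in both KO-labelled libraries. Its levels were 3.20 and 6.44 normalized counts in WT, and against the floor of 3 reads per library this is at least 1.63-fold lower in the KO-labelled libraries. The fitted log2 fold change of -2.48 (SE 0.77, unadjusted p 0.0207, adjusted p 0.289 by limma) depends on the pseudocount and is no bound. H2-Ab1 (chr17:34263209-34269418), the I-A beta chain, was at 8.54 and 68.0 normalized counts in WT and at 11.8 and 1.80 in the KO-labelled libraries. WT replicate 2 alone was high, with 74 reads, and WT replicate 1 was below replicate 1 labelled KO, so the groups overlapped. The means of H2-Ab1 were 38.3 ± 42.1 and 6.79 ± 7.05 (SD, n = 2), and the log2 fold change of -2.10 (SE 1.28) had an adjusted p of 0.520, and became -0.67 without WT replicate 2. WT replicate 2 was also the library with the highest summed level of microglia and macrophage markers, 1.75 times WT replicate 1.

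H2-Eb1 (chr17:34305877-34316199), the beta chain of I-E, was at 8.54 and 7.36 normalized counts in WT and at 2.14 and 8.11 in the KO-labelled libraries. Replicate 1 labelled KO alone was low, the groups overlapped, and the log2 fold change was -0.74 (SE 0.85, adjusted p 0.733). The gene overlaps Gm20513 on the other strand. The C57BL/6 strain is known to carry a defective I-E alpha gene, so that the I-E beta chain reaches no partner there. H2-Ea and H2-Eb2 were not analysed here. The alpha chain H2-Aa and the beta chain H2-Ab1, partners in I-A, stood at 0.125 ± 0.0561 and 1.13 ± 1.22 FPKM in WT, and both rested on so few reads outside WT replicate 2 that their balance was not measurable at this depth.

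Cd74, the invariant chain, lies outside the MHC. It was at 11.7 and 21.2 normalized counts in WT and at 5.35 and 6.31 in the KO-labelled libraries, from 11, 23, 5 and 7 reads. Both KO-labelled libraries were below both WT libraries, by 2.82-fold between the means (16.4 ± 6.66 and 5.83 ± 0.677, SD, n = 2). The log2 fold change of -1.30 (SE 0.72) had an adjusted p of 0.482 by limma and 0.653 by DESeq2, so the difference did not pass. Relative to Csf1r, a receptor of microglia and macrophages, the FPKM ratio of Cd74 was 0.232 and 0.153 in WT and 0.525 and 0.495 in the KO-labelled libraries. Cd74 thus lay lower by less than Csf1r did, with an exact permutation p of 0.333 for the ratio.

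The chains of DM, the factor that exchanges the invariant chain fragment for peptide, gave different pictures. H2-DMa (chr17:34135182-34139101) encodes the alpha chain and was at 159 and 123 normalized counts in WT and at 140 and 113 in the KO-labelled libraries. The means were 141 ± 25.3 and 126 ± 19.5 (SD, n = 2), the groups overlapped, and the log2 fold change was -0.15 (SE 0.42, adjusted p 0.898), or 0.24 with quantile normalization. H2-DMb1 (chr17:34153072-34160230) encodes the beta chain and was recovered with 46 and 54 reads in WT and with 5 and 1 in the KO-labelled libraries. The 95% Poisson intervals of these counts, 33.7 to 61.4 and 40.6 to 70.5 reads in WT against 1.62 to 11.7 and 0.0253 to 5.57, were apart. The means of H2-DMb1 were 49.4 ± 0.407 and 3.13 ± 3.15 normalized counts, 15.8-fold lower, with 1 read in replicate 2 labelled KO. Over the summed reads, 100 in WT and 6 in the KO-labelled libraries, the fold was 16.8 with an exact 95% interval of 7.46 to 46.9 that covers counting error only. By limma the log2 fold change of H2-DMb1 was -3.86 (SE 0.85, unadjusted p 0.00503, adjusted p 0.197), and by DESeq2 it was -4.02 (SE 1.09, adjusted p 0.00682). edgeR's quasi-likelihood test gave H2-DMb1 an adjusted p of 0.227. Over the 15 alternatives it stayed lower, between -4.73 and -1.26, and leaving out WT replicate 1 or WT replicate 2 gave an unadjusted p of 0.0669 by limma with the log2 fold change near -3.86. The log2 fold change was -4.73 without replicate 1 labelled KO and -2.99 without replicate 2 labelled KO, so its size rests on these few reads.

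The ratio of both DM chains was also read within each library, where library size cancels. H2-DMb1 over H2-DMa was 0.341 and 0.445 in WT and 0.0422 and 0.00884 in the KO-labelled libraries, as a ratio of FPKM. The last of these rests on 1 read of H2-DMb1, so no fold is given, and the exact two-sided permutation p was 0.333, again the smallest possible. Between the WT libraries H2-DMb1 was level, at 49.1 and 49.7 normalized counts, while Csf1r was at 175 and 478. The FPKM ratio of H2-DMb1 to Csf1r was 0.923 and 0.342 in WT and 0.498 and 0.0671 in the KO-labelled libraries, so these groups overlapped (exact permutation p 0.667). The ratio of H2-DMb1 to Psmb8, an immunoproteasome gene of the same region chosen after its values were seen, was 0.0695 and 0.0697 in WT and 0.0894 and 0.0151 in the KO-labelled libraries (exact permutation p 1).

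**Figure D2:**
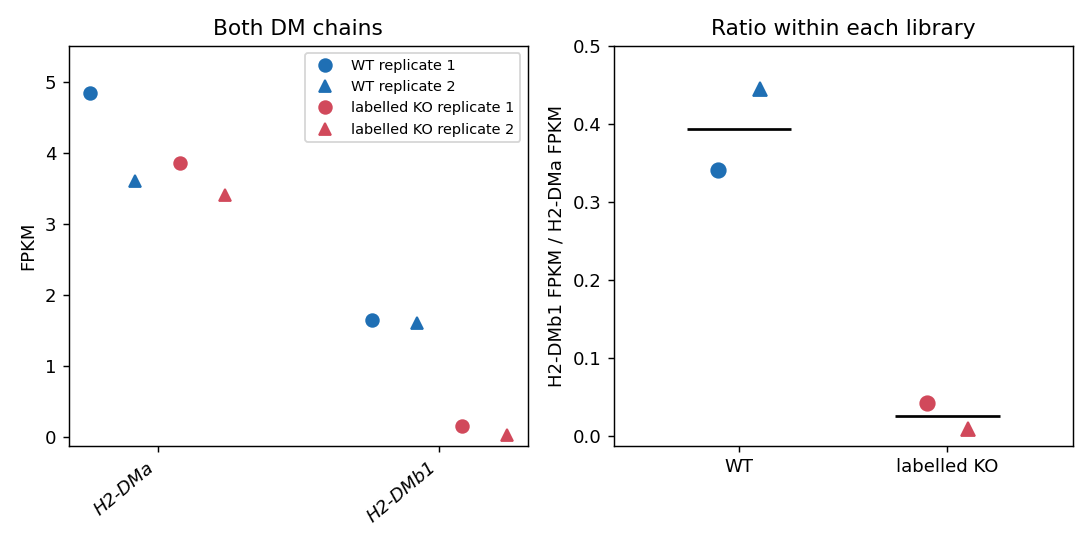
Left, FPKM of both DM chains in each library; right, the FPKM of H2-DMb1 divided by that of H2-DMa within each library, with a line at the mean of each group (n = 2); circles are replicate 1, triangles replicate 2. H2-DMa lies between 3.40 and 4.84 FPKM in all 4 libraries, and the ratio is 0.341 and 0.445 in WT against 0.0422 and 0.00884 in the KO-labelled libraries.

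Overlaps of gene models and shared sequence were read for both chains. In GENCODE M21 the model of H2-DMa begins further upstream, at 34119541, and overlaps 4 genes, 3 of them on the other strand. Of its 50-base words, 8.43% also occur in Brd2. The model given with the deposited values starts at 34135182, past the ends of Brd2 (34122634) and Gm20493 (34133537), so it overlaps neither. Brd2 was at 4650 and 5109 normalized counts in WT and at 7366 and 9315 in the KO-labelled libraries, and the FPKM ratio of H2-DMa to Brd2 was 0.152 and 0.107 against 0.0845 and 0.0537. H2-DMb1 shares 22.7% of its 50-base words with H2-DMb2, so reads between these copies are uncertain. H2-DMb2 (chr17:34143307-34151553), the near-identical second beta chain, held 4 reads in WT replicate 2 and 0 in the others. Summed over H2-DMb1 and H2-DMb2, reads stood at 46 and 58 in WT and at 5 and 1 in the KO-labelled libraries.

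DO was hardly seen. H2-Ob (chr17:34238903-34245907), the beta chain of the B cell inhibitor of DM, held 2 reads in WT replicate 2 and 0 in the other libraries. H2-DMb2 and H2-Ob had means under 1 and were left out of the limma test. H2-Ob was at or under the floor in all 4 libraries and H2-DMb2 in 3 of 4, and no fold is given for these few reads. DESeq2, which applied no such filter, gave unadjusted p-values of 0.489 for H2-DMb2 and 0.630 for H2-Ob. A difference in these genes was not detectable at this depth. The B cell marker Cd79a was near the floor in all libraries, at 4.27 and 6.44 normalized counts in WT against 3.21 and 2.70 in the KO-labelled libraries.

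The enzymes that prepare peptide and trim the invariant chain gave mixed values. Of 8 endosomal proteases and the reductase that serve class II, 4 were lower at an unadjusted p under 0.05 (Ctss, Ctsb, Ctsh and Ctsz), beside 9.18% of all genes, 0 were higher, and the median log2 fold change was -1.14. Ctss, the protease that finishes the invariant chain in professional cells, was at 175 and 527 normalized counts in WT and at 26.8 and 14.4 in the KO-labelled libraries (log2 fold change -3.88, SE 0.71, adjusted p 0.161 by limma and 4.44e-06 by DESeq2). Ctsl, which serves that step in thymic epithelium, was at 12870 and 12777 against 14406 and 10621, a log2 fold change of -0.05. Ifi30, the thiol reductase of antigen processing, had a log2 fold change of -0.60 (SE 0.62), and its groups overlapped. Ctsb, a broad lysosomal protease, was above Ctsd in WT (mean 499 against 316 FPKM) and below it in the KO-labelled libraries (162 against 309 FPKM), and had a log2 fold change of -1.68 (SE 0.57, adjusted p 0.316). March1, the ligase that marks class II for degradation, was at 17.1 and 16.6 against 3.21 and 7.21 normalized counts (adjusted p 0.422).

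**Figure D3:**
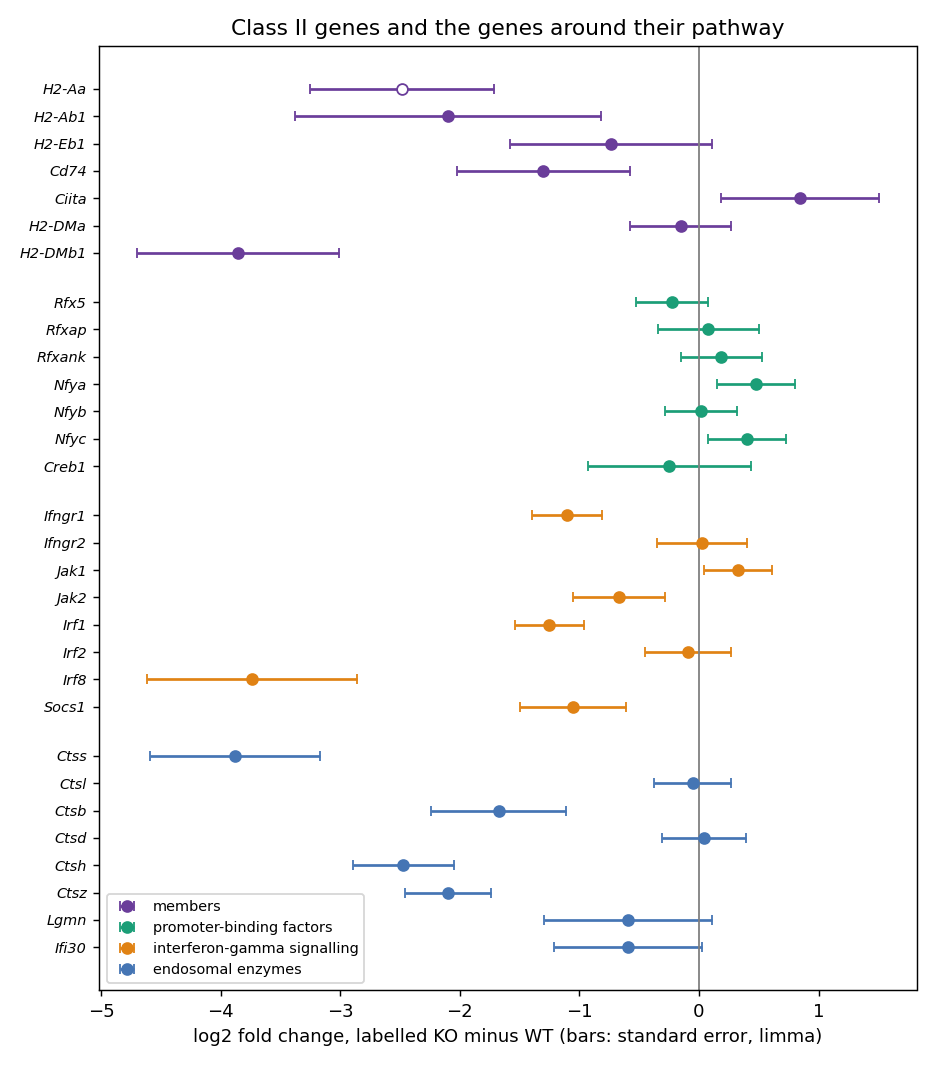
Log2 fold change, labelled KO minus WT, with the standard error from limma, for the 7 class II genes tested, the box-binding factors, 8 interferon-gamma signalling genes and the endosomal enzymes; the open point is H2-Aa, which was at 0 in both KO-labelled libraries. H2-DMb1 lies at -3.86 and Irf1 at -1.25, while Ciita lies at 0.84, H2-DMa at -0.15 and the box-binding factors lie near 0.

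Along the chromosome, genes that were lower and genes that were not lay next to each other. From Brd2 to H2-Eb1 the class II region runs over 204 kb (chr17:34112023-34316199), with 14 listed genes, 7 of them class II genes. Of the 7 others, 5 were lower in both KO-labelled libraries, among them Psmb8 (1302 and 1312 against 110 and 110 normalized counts), Psmb9, Tap1 and Tap2. Of the 7 class II genes 2 were (H2-Aa and H2-DMb1), and 25.4% of all genes tested were. The 5 include Gm15821, with 16 and 6 reads in WT and 0 and 6 in the KO-labelled libraries. Its replicates 2 thus differ through the size factor alone (5.52 against 5.41 normalized counts). The difference between the counts of lower genes was not tested. H2-DMb1, lower, lies between H2-DMb2, near 0, and Psmb9, lower, while H2-DMa lies on the Brd2 side of H2-DMb2, and Brd2 was above WT in both KO-labelled libraries. The neighbours of the class II genes were chosen by position and after their values were known.

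**Figure D4:**
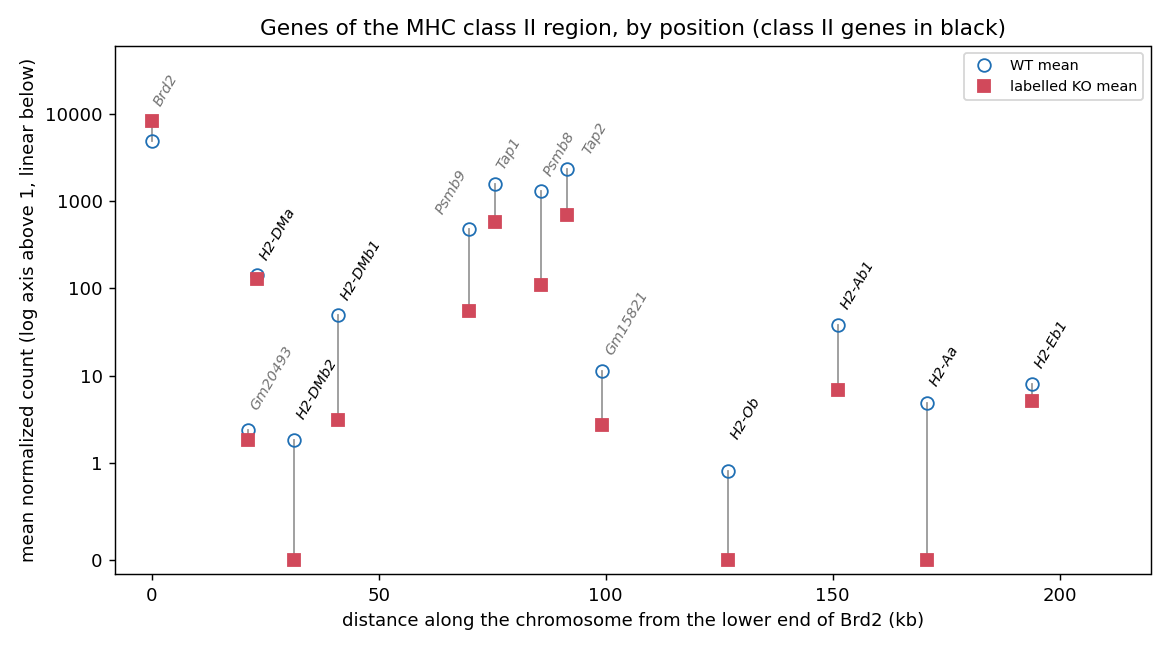
Mean normalized counts (n = 2) of the 14 listed genes of the class II region against distance along the chromosome from the lower end of Brd2, on an axis that is logarithmic above 1 and linear below; open circles are WT, filled squares labelled KO, and class II genes are named in black. Psmb8 and H2-DMb1 have long lines between their means, whereas the means of H2-DMa, 141 and 126, nearly coincide.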

How the data were processed

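RNA-seq was made from total RNA of cultured P1 astrocytes, 2 libraries per genotype label. The authors aligned paired reads to mm10; aligner, counter and annotation release are not given in the sources used here. The deposited values are a signal, read counts divided by a size factor, although named FPKM; in each library 100% were whole multiples of 1 read (tolerance 0.01), so reads were recovered. The authors' fold changes and p-values were not used. Since the design had assumed FPKM, normalized counts took their place. FPKM was computed from reads, gene length and reads on genes. limma 3.58.1 (R 4.3.3; lmFit, eBayes with trend) was run on log2(normalized count + 1) for genes whose mean reached 1, and p-values were adjusted by Benjamini-Hochberg; edgeR 4.0.16 and DESeq2 1.42.0 on recovered reads were alternatives. Scripts were tested on simulated data. Gene models came from GENCODE M21. The members and lists were chosen with earlier results of these data known. Text named all members and, per list, the highest by FPKM and the most changed genes; Ifngr2, Jak1, Ctsl, Dexi, Brd2, Psmb8 and other genes named outside this were chosen after their values were seen. Symbols turned into dates were restored for 11 genes by identifier. Depth was 18749610 to 22673555 reads on genes, so genes under 3 reads were not resolved. Some genes of the lists are not reported here.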

Additional observations from a re-analysis of the deposited data

How the results depend on the processing

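H2-Ab1, H2-Aa, Cd74, Ciita and H2-DMb1 kept their direction under every alternative run. The count of class II genes lower at an unadjusted p under 0.05 was 2. With all 4 libraries kept, it became 1 with a mean of at least 5 (H2-Aa then could not be fitted), by DESeq2, and on log2(FPKM + 1). With limma's eBayes without a trend it became 3, where Cd74 had an unadjusted p of 0.0447. Leaving out either WT library moved this count as well, but such a fit rests on 1 WT library. The adjusted count of class II genes, 0, became 1 by DESeq2. The median of -1.30 became -0.79 with quantile normalization, -2.36 by DESeq2, which is the value of H2-Ob, a gene of 2 reads, and so says nothing of the set (-1.50 by DESeq2 over the 7 genes) and -0.17 on log2(FPKM + 1), and lay between -1.70 and -0.83 without single libraries (-0.83 without WT replicate 2). Genes with both KO-labelled libraries below WT stayed 3 under equal sums, median log ratio and quantile scaling, and were 4 to 6 without single libraries, where fewer libraries have to be separated. Over all genes, 3032 at an unadjusted p under 0.05 became 1135 without WT replicate 1, 1380 without WT replicate 2 and 4846 without replicate 1 labelled KO, and quantile normalization gave 1417 higher and 1490 lower in place of 1004 and 2028. DESeq2 called 1106 genes after adjustment, edgeR and limma 0. Reversed values were H2-DMa, 0.24 with quantile normalization and -0.34 to 0.028 (0.0026 without replicate 2 labelled KO, 0.028 without WT replicate 1) without single libraries, and H2-Eb1, -1.51 to 0.030, positive without replicate 1 labelled KO. The cause was not tested. Same-numbered libraries did not deviate together (correlation -0.0842), so the numbers do not pair them; a replicate block gave 2583 genes, 2 class II genes lower, and p 0.00610 for H2-DMb1, and changed no call. Median log2 fold change over all genes was -0.07, -0.11 with equal sums and 0.08 with quantile normalization. Depth limits H2-DMb2, H2-Ob and H2-Aa.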

Other observations

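Genes that T cells read beside class II differed unevenly. Of 5 co-stimulation ligands with a row, 3 were lower at an unadjusted p under 0.05 (Cd86, Icosl and Cd274), beside 9.18% of all genes, 0 were higher, and the median log2 fold change was -2.41. Icosl, the ligand of ICOS, was at 1100 and 726 normalized counts in WT and at 224 and 15.3 in the KO-labelled libraries (log2 fold change -3.88, SE 1.22, adjusted p 0.293 by limma and 0.0419 by DESeq2). Cd86, the classical ligand of CD28 on antigen-presenting cells, was at 5.33 and 8.28 against 1.07 and 0, near the floor, and passed the mean filter through its WT reads. Cd80, its counterpart, was at 26.7 and 24.8 against 12.8 and 85.6, and its groups overlapped. Cd274, which encodes the inhibitory ligand PD-L1, was at 527 and 267 against 59.9 and 73.0 (log2 fold change -2.48, SE 0.49, adjusted p 0.175 by limma and 0.000560 by DESeq2).

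Markers of other antigen-presenting cells had mixed levels. Of 4 border macrophage markers with a row, 3 were tested, and 2 were lower at an unadjusted p under 0.05 (Ms4a7 and Mrc1), beside 9.18% of all genes. Mrc1 held 3 and 5 reads in WT and 0 in both KO-labelled libraries, and passed the mean filter through its WT reads. Ms4a7 was at 54.4 and 185 normalized counts in WT and at 3.21 and 0.901 in the KO-labelled libraries, and Pf4 was at 31.3 in WT replicate 2 and between 0.901 and 1.07 in the other libraries, so that its groups overlapped. Of the dendritic cell markers, Itgax was at 1.07 and 1.84 in WT and at 0 in both KO-labelled libraries, and Zbtb46 was at 174 and 189 against 97.4 and 48.7. Batf3 was at 48.0 and 58.9 against 19.3 and 3.61, while Xcr1, at 5.33 and 8.28 against 10.7 and 3.61, overlapped between the groups. The B cell markers summed to 5.33 and 17.5 normalized counts in WT, against 5.35 and 8.11 in the KO-labelled libraries. Their part in the values of the class II genes was not tested.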
